A study of Mus musculus with 59 samples.

Results

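Hydroxycitrate (HC) is an inhibitor of ATP citrate lyase (ACLY), which turns citrate exported from mitochondria into cytosolic acetyl-CoA. The data compared here ask what HC in the diet left in the transcriptome of mouse gastrocnemius, a calf muscle, 30 days after a muscle injury. The 6 libraries concerned, of 59 in the series and 15 from gastrocnemius, were chosen by their labels alone: 3 labelled CTX at 30 days post injury (DPI) and 3 labelled CTX-HC at 30 DPI. All came from adult wild-type male C57BL/6 mice (written C57BL76 in the labels) injected with 10 µM cardiotoxin (CTX), a snake toxin that kills muscle fibres, into the left calf. The CTX-HC mice then received the potassium salt of HC in the standard diet until day 30, and the CTX mice received the diet without it. Gastrocnemius libraries from uninjected mice (C, n = 3) and from mice taken 2 days after injury without HC (CTX 2 DPI, n = 3) or with it (CTX-HC 2 DPI, n = 3) entered the same fit and served as context. The 2 DPI mice were drawn from the previously uninjected control group. RNA levels do not measure ACLY activity, so how far HC inhibited the enzyme in these muscles is not shown here.

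ACLY supplies acetyl-CoA for fatty acid and cholesterol synthesis and for histone acetylation. After cardiotoxin, dead fibres are cleared by neutrophils and macrophages, and satellite cells divide and fuse into new fibres that first carry embryonic and neonatal myosins. Within weeks these are replaced by adult slow or fast myosins, and the slow, oxidative fibres hold more mitochondria and burn more fatty acids. Since the samples are bulk tissue, fewer cells of a type and less RNA per cell cannot be told apart.

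The values were normalised read counts. Depths of 16.04 to 34.89 M reads were estimated for the 6 libraries by taking the commonest low value as 1 read. Few values were whole multiples of that unit, so these depths are uncertain. Muscle markers were abundant in all of them, with a summed level over 12 skeletal muscle genes of 3206000 to 4978000 in CTX and 2078000 to 5128000 in CTX-HC. Nevertheless, 1 library of each group stood apart from the other 4, namely CTX replicate 1 and CTX-HC replicate 3. Pairwise correlations of log2 values across genes were 0.963 to 0.9812 among the other 4 libraries (6 pairs) and 0.8658 to 0.9566 in the 9 pairs that held one or both of those 2. CTX replicate 1 stood apart less, at 0.9199 to 0.9566 with the other 4, against 0.8658 to 0.879 for CTX-HC replicate 3. CTX-HC replicate 3, with the lowest estimated depth of the 6, held the highest value for 4609 and the lowest for 4497 of the 14033 genes tested. CTX replicate 2, which was kept, held 2654 and 3083, more than CTX replicate 1 with 1996 and 2043. Values are therefore given with all libraries. The counts, list medians and log2 fold changes described are also given without CTX replicate 1 and CTX-HC replicate 3. That choice was made after the data were seen and leaves 2 libraries against 2. CTX replicate 2 carried a library number above 100 in the labels against 50 to 63 in the other 5, and what that number marks is not stated. The labels do not tie each library to an animal, and the study describes each gastrocnemius sample as coming from a single mouse.

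No gene differed between CTX-HC and CTX at 30 DPI after correction (0 of 14033 genes, 0%, limma, Benjamini-Hochberg adjusted p under 0.05), and the smallest adjusted p was 1. At an unadjusted p under 0.05 there were 106 genes (0.755% of those tested), 76 higher with HC (0.542%) and 30 lower (0.214%), where 5% of the genes tested would be 702. The threshold used in the study for this comparison, an unadjusted p of at most 0.05 with at least a 2-fold difference (1 on the log2 scale), was met by 60 genes (0.428%), of which 45 were higher (0.321%) and 15 lower (0.107%). That split leaned less to the higher side under quantile normalisation (42 higher and 28 lower) and with the library number as a covariate (38 and 34), and it turned to the lower side without CTX-HC replicate 3 (29 and 67). Of the 45 higher genes, 33 had their highest value in CTX-HC replicate 3, and of the 15 lower genes 8 had theirs in CTX replicate 1. The 2 groups did not overlap for 308 genes (2.19%), with CTX-HC above for 201 (1.43%) and below for the rest (0.762%). Random labels of 3 against 3 would separate the groups for a share of 0.1 of genes, and the 2.19% lay below that. Lack of overlap in a named gene is therefore a description only. Without the 2 libraries that stood apart, 208 genes had an unadjusted p under 0.05 (1.48%) and 100 met the study's threshold (0.713%), 47 higher and 53 lower. The fits with and without them shared 12 genes at that threshold, 20% of the 60 and 12% of the 100, and no gene of the 60 changed sign. For the 27 higher and 9 lower of the 60 whose groups did not overlap, leaving out libraries could not change it.

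**Figure D1:**
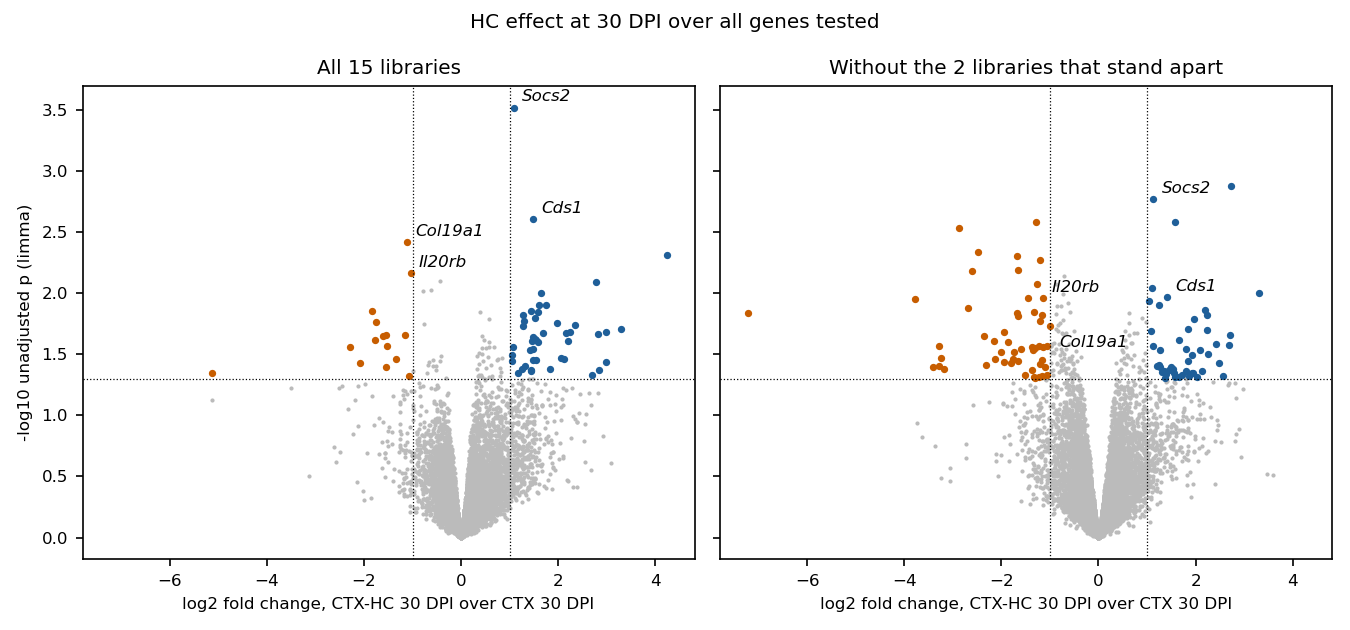
Each point is 1 of the 14033 genes tested, with the log2 fold change of CTX-HC over CTX at 30 DPI on the x axis and −log10 of the unadjusted p on the y axis, for all 15 libraries (left) and without the 2 that stand apart (right), with genes at the study's threshold (dotted lines) in blue where higher and orange where lower. With all libraries 60 genes met the study's threshold, and without the 2 libraries 100 did.

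Socs2, a suppressor of cytokine signalling that damps growth hormone and JAK-STAT signalling, separated the groups in every library. Its normalised counts were 113.3, 85.15 and 130.8 in the 3 CTX libraries and 207, 261.3 and 223.7 in the 3 CTX-HC libraries. All 3 CTX-HC values therefore lay above all 3 CTX values, and neither library that stood apart was extreme. The group means were 109.8 ± 23.05 (SD, n = 3) in CTX and 230.7 ± 27.8 (SD, n = 3) in CTX-HC, beside 233.1 ± 49.32 (SD, n = 3) in uninjected muscle. The log2 fold change was 1.08 (SE 0.22, unadjusted p = 0.000303 by limma) and 1.13 without the 2 libraries. An exact two-sided permutation test gave p = 0.1, which is the smallest that 3 against 3 allows. The test gives that value for any gene whose groups do not overlap, so it adds nothing to the separation. The gene was named for its small interaction p (below), a choice made from these same data. Socs2 lies on chromosome 10 (GRCm38, chr10:95385362-95417180, minus strand).

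The genes named were the 10 largest higher values at the study's threshold with no overlap between groups and a mean of at least 20, and the 4 lower ones that met the same rule, none of which passed correction. Cds1 (chr5:101765130-101823858, plus strand), which makes the CDP-diacylglycerol needed for phosphoinositides and cardiolipin, measured 16.52, 40.57 and 18.02 in CTX and 60.17, 89.19 and 53.18 in CTX-HC. Its log2 fold change was 1.48 (SE 0.40), and 1.40 without the 2 libraries. Ikzf4, a zinc finger transcription factor of the Ikaros family, measured 21.08, 9.444 and 11.06 in CTX and 27.89, 52.05 and 69.07 in CTX-HC, a log2 fold change of 1.76 (SE 0.61), and 1.80 without the 2 libraries. The mean of Cds1 was 57.52 ± 23.93 in uninjected muscle, 25.03 ± 13.47 in CTX and 67.51 ± 19.09 in CTX-HC (SD, n = 3 each).

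Several of the higher genes rested in large part on 1 library. CTX-HC replicate 3 held the highest value for 9 of the 10 higher genes. Pnpla3, a lipid droplet protein whose gene responds to feeding, measured 25.35, 51.75 and 44.5 in CTX and 86.31, 63.09 and 350.2 in CTX-HC. Its log2 fold change went from 1.65 to 0.61 without the 2 libraries. Mcpt4, a mast cell protease, measured 12.53, 10.06 and 501.5 in CTX-HC and 3.234 to 8.5 in CTX. A single library thus carried much of its log2 fold change of 2.69, which was 1.18 without the 2 libraries. Nnat, which encodes neuronatin, stood at 104.7 in that same library and at 14.83 and 2.151 in the other CTX-HC libraries, with log2 fold changes of 3.30 and 2.32 in the respective fits. Other higher genes were Nat8l, which makes N-acetylaspartate (log2 fold change 1.98, and 1.56 without the 2 libraries), Doc2g (1.59 and 1.21), Slc45a3 (1.28 and 0.55) and Nxpe3 (1.16 and 0.37). Nxpe3 measured 51.09 and 56.75 in CTX-HC replicates 1 and 2 and 307.1 in replicate 3, against 38.67 to 44.69 in CTX. Of these 14 higher and lower genes, 3 still met the study's threshold without the 2 libraries, namely Cds1, Ikzf4 and Il20rb.

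The 4 lower genes were Edil3, Ctxn3, Col19a1 and Il20rb. Col19a1 (chr1:24261890-24587472, minus strand), a non-fibrillar collagen expressed in muscle, measured 287.2, 208.5 and 338.2 in CTX and 143, 126.4 and 110.3 in CTX-HC. The groups did not overlap, at a log2 fold change of −1.11 (SE 0.32), and −0.98 without the 2 libraries. Il20rb (chr9:100457719-100486788, minus strand), a receptor subunit for interleukins of the IL-20 family, measured 78.37, 66.56 and 57.95 in CTX and 27.07, 28.28 and 43.14 in CTX-HC. Its log2 fold change was −1.04 (SE 0.33), and −1.14 without them. The mean of Il20rb was 33.29 ± 4.041 in uninjected muscle, 67.62 ± 10.25 in CTX and 32.83 ± 8.947 in CTX-HC (SD, n = 3 each), and that of Col19a1 was 160.4 ± 61.01, 278 ± 65.34 and 126.5 ± 16.35. Uninjected means are printed for Socs2, Cds1, Il20rb and Col19a1 only, and no rule chose those genes. Whether HC brought genes back towards the uninjected level was not tested. Ctxn3, which encodes cortexin 3, measured 1217, 872.4 and 2004 in CTX and 861, 809.3 and 269.7 in CTX-HC, so its highest CTX-HC library lay just under its lowest CTX library, and its log2 fold change went from −1.17 to −0.66 without the 2 libraries. Edil3, a secreted integrin ligand, measured 82.02 in CTX replicate 1 against 20.89 and 29.16 in the other CTX libraries, and 7.563 to 16.8 in CTX-HC, with log2 fold changes of −1.74 and −1.06.

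**Figure D2:**
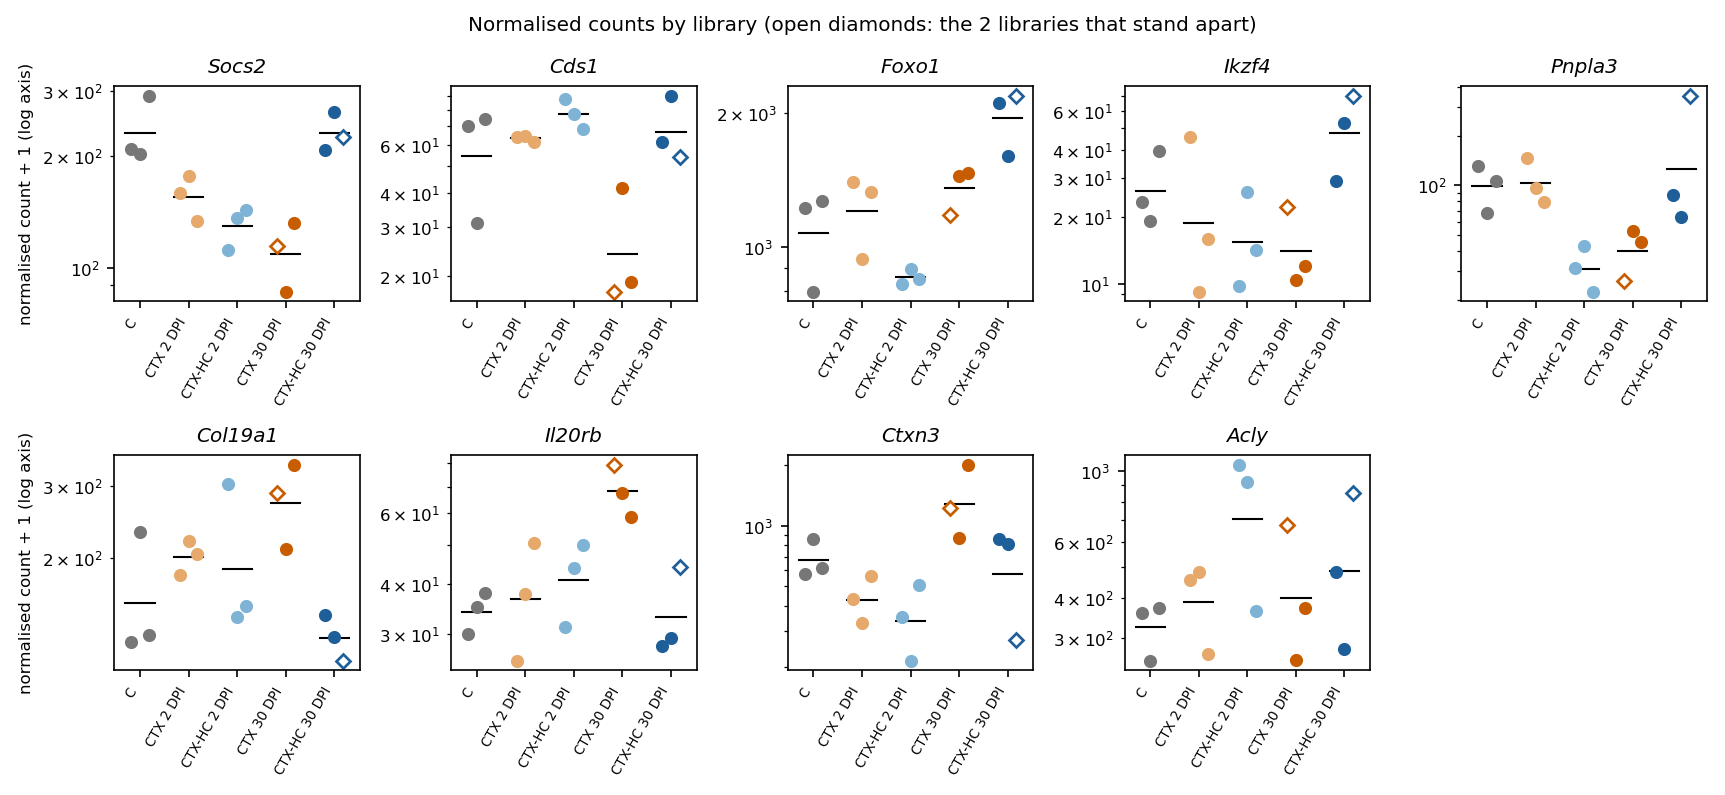
Normalised counts plus 1 (log y axes) of 9 genes in each of the 15 libraries, grouped by condition (x axes), with horizontal bars for the mean of the log values and open diamonds for the 2 libraries that stand apart. For Socs2 the CTX-HC libraries sit between 207 and 261.3, all above the CTX libraries at 85.15 to 130.8, while for Pnpla3 the value of 350.2 in CTX-HC replicate 3 lies far from the rest.

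Among the 37 gene lists examined, none held a member past correction, 7 held 1 member with an unadjusted p under 0.05 and 30 held none. The background share at that p was the 0.755% given above. The medians of 16 lists changed sign when the 2 libraries were left out, against a median over all genes tested of 0.00332 with them and 0.0151 without.

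**Figure D3:**
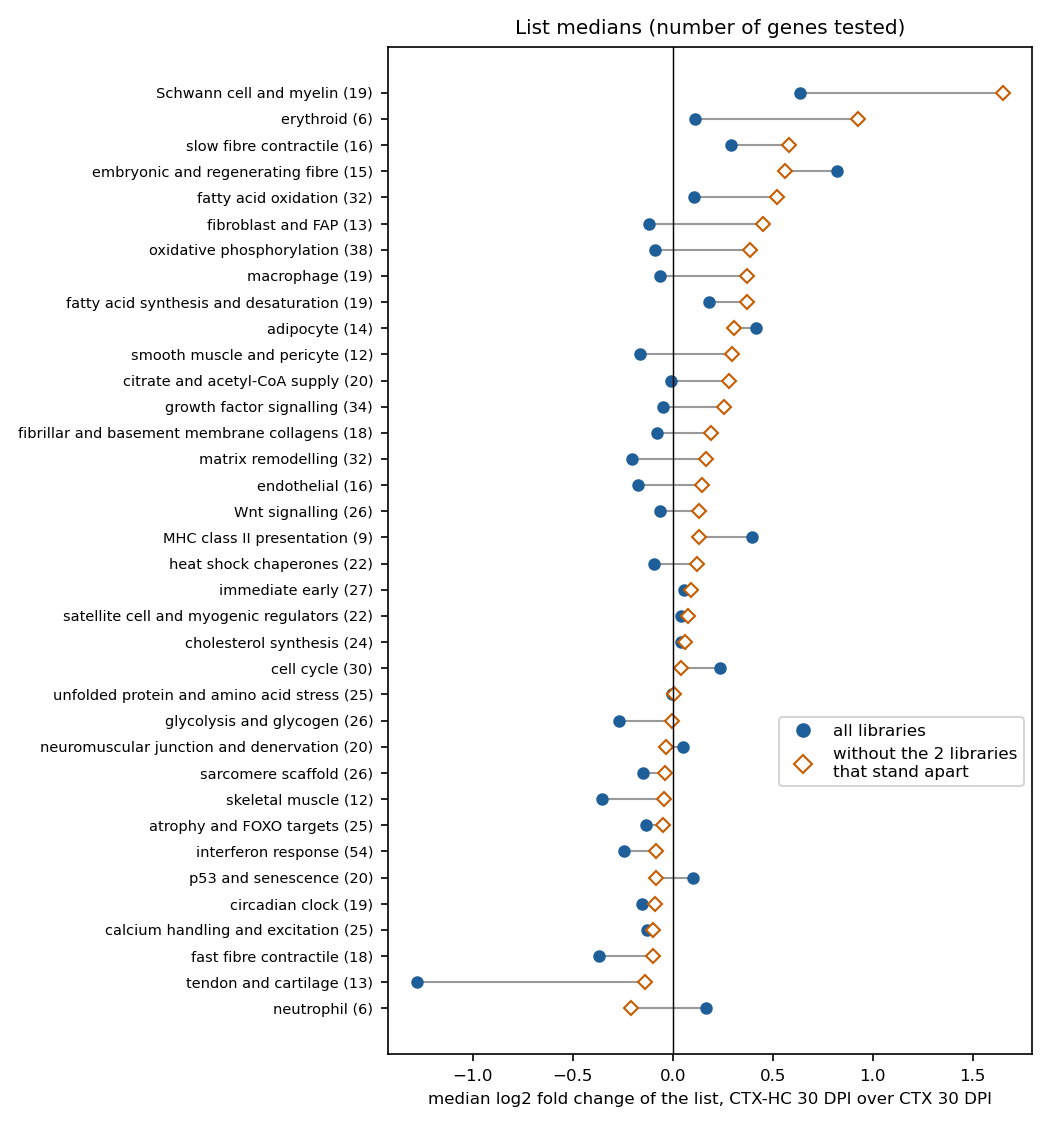
Median log2 fold change of CTX-HC over CTX at 30 DPI (x axis) for each list (y axis, with the number of genes tested), with all libraries (filled circles) and without the 2 that stand apart (open diamonds). The median of the oxidative phosphorylation list moves from −0.0881 to 0.384, and the lymphocyte list, with 5 of 20 genes tested, is left out.

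Acly itself (chr11:100476353-100528000, minus strand) measured 674.8, 254.3 and 372.3 in CTX and 481, 276.3 and 849.3 in CTX-HC. The groups overlapped, with a log2 fold change of 0.27 (SE 0.48, unadjusted p = 0.579 by limma), and 0.24 without the 2 libraries. Of the 20 tested genes of citrate and acetyl-CoA supply, 8 were positive and the median log2 fold change was −0.0115. Without the 2 libraries 17 were positive and the median was 0.281. Slc25a1, the mitochondrial citrate carrier, had the largest value of the list at 0.77, and 0.59 without them. Fatty acid synthesis and desaturation (19 genes) had medians of 0.183 with all libraries and 0.37 without the 2, with Pnpla3 as the 1 member at an unadjusted p under 0.05. Fasn, the fatty acid synthase, measured 1077, 710.6 and 791.9 in CTX and 1213, 891.3 and 3849 in CTX-HC, and Scd1, a desaturase, reached 12067 in CTX-HC replicate 3 against 545 to 1911 in the other 5 libraries. Both were thus highest in a library that stood apart, and the log2 fold change of Fasn was 0.93 with all libraries and 0.47 without the 2. The 24 cholesterol synthesis genes had medians of 0.0407 and 0.0617 with and without them.

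The sign of the mitochondrial genes depended on which libraries entered. Oxidative phosphorylation, the respiratory chain and ATP synthase, had a median of −0.0881 over 38 genes, 7 of them positive. CTX-HC replicate 3 had a summed level of 154200, below the 257600 to 317000 of the CTX libraries, whereas CTX-HC replicates 1 and 2 had 383100 and 345500. Without the 2 libraries all 38 log2 fold changes were positive, with a median of 0.384, and for 32 of 38 genes both CTX-HC libraries lay above both CTX libraries. Over all genes tested that held for 1993 (14.2%), and both CTX-HC libraries lay below for 1549 (11%). Genes of 1 pathway in the same 4 libraries are not independent, and 2 of the 38 had an unadjusted p under 0.05 there. Ndufs8, a subunit of complex I, measured 1443, 831.7 and 1332 in CTX and 1956, 1698 and 520.9 in CTX-HC, a log2 fold change of 0.04 with all libraries and 0.79 without the 2. Cox8b, a muscle subunit of cytochrome c oxidase, went from −0.10 to 0.83.

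The 32 genes of fatty acid oxidation had a median of 0.104 with all libraries, 24 of them positive, and 0.523 without the 2, 30 of them positive. In 22 of 32 genes both remaining CTX-HC libraries lay above both CTX libraries. In that fit 7 had an unadjusted p under 0.05, against 1.48% of all genes tested, namely Cpt2, Acadl, Etfa, Etfdh, Fabp3, Lpl and Ppara. Ppara, a nuclear receptor that drives fatty acid oxidation genes, measured 1105, 376.9 and 838.6 in CTX and 2037, 1065 and 575.9 in CTX-HC, with log2 fold changes of 0.61 and 1.39 in the respective fits. Lpl, which frees fatty acids from circulating lipoproteins, measured 10579, 5315 and 8734 in CTX and 21434, 11612 and 5578 in CTX-HC. In both genes CTX-HC replicate 1 was the highest library, and CTX replicate 2 and CTX-HC replicate 3 were the 2 lowest. Acadl, which begins the oxidation of long acyl chains, measured 4237, 3419 and 3377 in CTX and 6751, 4762 and 3100 in CTX-HC. Glycolysis and glycogen genes (26 tested) had medians of −0.271 and −0.002.

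**Figure D4:**
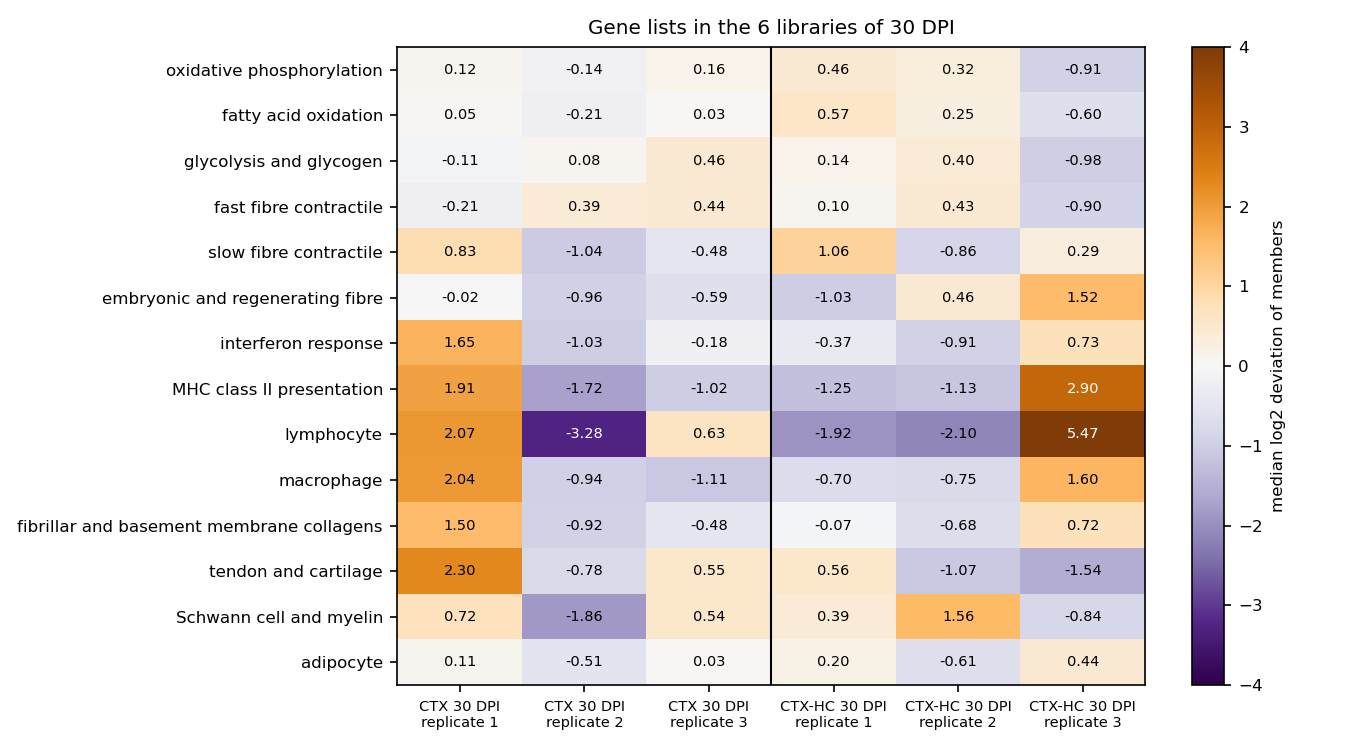
Each cell gives, for 1 list (rows) in 1 library of 30 DPI (columns), the median over the members tested of the log2 deviation from the gene's mean over the 6 libraries, with colours ending at 4 on either side. The lymphocyte list is at 5.47 in CTX-HC replicate 3, and oxidative phosphorylation is at −0.91 in CTX-HC replicate 3 and above 0.3 in the other 2 CTX-HC libraries.

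Contractile genes of slow fibres (16 tested) had medians of 0.289 with all libraries and 0.58 without the 2, and those of fast fibres (18 tested) −0.369 and −0.101. Myh7, the slow myosin heavy chain, measured 36997, 8868 and 15566 in CTX and 42549, 6810 and 22740 in CTX-HC, so each group held both a high and a low library. Casq2, the calsequestrin of slow and cardiac muscle, had a log2 fold change of 1.06 (SE 0.50), and 1.26 without the 2 libraries. The genes of embryonic and regenerating fibres (15 tested) had a median of 0.822, 14 of them positive, and 0.561 without the 2 libraries. Tnnt2, a troponin T of embryonic muscle, was the 1 member with an unadjusted p under 0.05, at 31.5, 35.32 and 15.22 in CTX and 30.82, 231.7 and 923.1 in CTX-HC, with log2 fold changes of 2.83 and 1.83 with and without the 2 libraries. Myh3, the embryonic myosin, measured 809.5, 408.8 and 140.3 in CTX and 341.9, 2877 and 6722 in CTX-HC (2.38 and 2.05). In Tnnt2 and Myh3 CTX-HC replicates 2 and 3 were high and replicate 1 lay within the CTX range, so the groups overlapped. Over the list, CTX-HC replicate 3 held the highest value for 12 of the 16 members. The list's summed level was 21350 to 34530 in CTX, and 31450, 28700 and 53570 in CTX-HC. Sarcomere scaffold genes (26 tested) had medians of −0.151 and −0.0417. Foxo1, which drives atrophy genes and the switch to fatty acid use, measured 1181, 1447 and 1468 in CTX and 2098, 1601 and 2183 in CTX-HC. Its groups did not overlap, at a log2 fold change of 0.52 (SE 0.21, unadjusted p = 0.0281 by limma), and 0.33 without the 2 libraries. Foxo1 was the 1 member at an unadjusted p under 0.05 of the atrophy and FOXO target list (25 tested). That list had 9 positive and 16 negative members, with medians of −0.134 and −0.0499 with and without the 2 libraries.

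Interferon-response genes were examined with their promoters, because interferons act through a short element, the ISRE, bound by STAT and IRF proteins. The promoters of 3 members are printed to show the element, each 250 bases ending just before the RefSeq transcription start (GRCm38.p6), with the core in capitals, GAAANNGAAA on either strand. They are Igtp (chr11:58199306-58199555, plus strand), Irgm2 (chr11:58214727-58214976, plus strand) and Ifit3 (chr19:34583279-34583528, plus strand).
Igtp: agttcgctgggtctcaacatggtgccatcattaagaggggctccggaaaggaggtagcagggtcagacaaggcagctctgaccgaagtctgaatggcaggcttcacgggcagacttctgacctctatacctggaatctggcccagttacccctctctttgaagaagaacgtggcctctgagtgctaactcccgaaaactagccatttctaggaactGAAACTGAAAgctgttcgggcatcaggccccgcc
Irgm2: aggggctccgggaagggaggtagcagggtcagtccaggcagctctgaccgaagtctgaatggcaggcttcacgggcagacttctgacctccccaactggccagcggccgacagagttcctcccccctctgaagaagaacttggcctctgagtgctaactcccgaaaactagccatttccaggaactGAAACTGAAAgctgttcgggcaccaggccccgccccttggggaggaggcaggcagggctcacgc
Ifit3: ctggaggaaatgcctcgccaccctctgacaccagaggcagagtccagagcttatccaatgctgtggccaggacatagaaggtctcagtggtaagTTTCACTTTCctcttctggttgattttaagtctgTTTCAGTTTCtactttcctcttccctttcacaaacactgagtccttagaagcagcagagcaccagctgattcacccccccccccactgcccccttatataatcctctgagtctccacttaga

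The near end of the core lay 25 bases before the start in Igtp and 55 in Irgm2, and Ifit3 held 2 matches. Of the 54 list members 38 had a matched promoter, and 21 of these 38 genes (55.3%) held the core. That compares with 936 of 27025 genes with a promoter of that length (3.46%), and 358 of 10919 matched among the genes tested (3.28%). A gene with more than 1 promoter counted if any of them held the core. A match to these letters is a description and no evidence of binding. Igtp, a GTPase that interferon gamma induces against intracellular parasites, measured 2212, 187.9 and 425.3 in CTX and 162.2, 235.2 and 195.6 in CTX-HC. Its log2 fold change was −1.52 (SE 0.61, unadjusted p = 0.0269 by limma), and −0.53 without the 2 libraries. Irgm2, a related GTPase whose annotated span overlaps Igtp on the same strand so that reads could be shared, measured 3668, 327.1 and 902.5 in CTX and 440.4, 406.7 and 503 in CTX-HC, with log2 fold changes of −1.19 and −0.36. Irgm1 measured 1377 in CTX replicate 1 and 253.9 to 408.3 in the other 5 libraries, with −0.84 and −0.33. All 3 GTPases were thus highest in CTX replicate 1. Over the 54 genes tested, 44 were negative with a median of −0.245, and without the 2 libraries 34 were negative with a median of −0.0851. CTX replicate 1 held the highest value for 40 of the 54 and CTX-HC replicate 3 for 13. The summed level of the list was 29360 in CTX replicate 1, and 4306 and 8137 in the other CTX libraries, beside 6548, 4938 and 12260 in CTX-HC. Gvin1, an interferon-induced GTPase, was listed at 624.2, 0 and 68.1 in CTX and at 0 in all 3 CTX-HC libraries, and no fold is given.

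Markers of immune cells followed the same 2 libraries. MHC class II genes, which present antigen to helper T cells, had 9 of 9 tested members positive and a median of 0.397, which became 7 of 9 and 0.133 without the 2 libraries, and 11 of 12 members were highest in CTX-HC replicate 3. Cd74, the invariant chain, measured 6314, 532.5 and 837 in CTX and 760.2, 783.4 and 16752 in CTX-HC, so the high value of each group was its library that stood apart. Lymphocyte markers passed the filter on low values for 5 of 20 genes, and 13 of the 17 in the table were highest in CTX-HC replicate 3. Their summed level was 5982 there and 9.71 to 754.8 in the other 5 libraries. Macrophage markers summed to 9364 in CTX replicate 1 and 7856 in CTX-HC replicate 3, against 1169 to 1629 in the other 4, with list medians of −0.0627 and 0.37. Ier3, an immediate early gene that responds to stress, was the 1 member of its list with an unadjusted p under 0.05, at 143.9, 192.9 and 116.3 in CTX and 88.56, 91.62 and 133.6 in CTX-HC, with log2 fold changes of −0.52 and −0.73. The part of these cells in the other results was not tested beyond leaving the 2 libraries out.

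Connective tissue genes were mostly highest in CTX replicate 1, which held the highest value for 14 of 18 collagens and 25 of 32 matrix remodelling genes. Collagens of fibrils and basement membranes (18 tested) had 8 positive with a median of −0.0791, and 17 positive with a median of 0.189 without the 2 libraries. Their summed level was 23910 to 120200 in CTX and 29240 to 99260 in CTX-HC. Matrix remodelling genes (32 tested) went from a median of −0.204 to 0.168. Tendon and cartilage markers (13 tested) had no positive member and a median of −1.28, against 5 positive members and a median of −0.137 without the 2 libraries, and 12 of the 14 listed were highest in CTX replicate 1. Tnmd, which marks tendon cells, measured 225.4, 20.53 and 53.65 in CTX and 58.89, 9.747 and 4.053 in CTX-HC, and without the 2 libraries its log2 fold change went from −2.12 to −0.44. Schwann cell and myelin genes (19 tested) had medians of 0.638 and 1.65. Their summed level was 910.6 in CTX replicate 2, 7729 in CTX-HC replicate 2, which held the highest value for 13 of the 19, and 2745 to 4460 in the other 4 libraries. Both of those libraries are among the 4 behind the median of 1.65. Adipocyte markers (14 tested) had medians of 0.416 and 0.307, whereas their summed level was 63540, 73030 and 71710 in CTX and 65020, 41810 and 30270 in CTX-HC, lower in 2 of the 3 CTX-HC libraries than in any CTX library. Car3, a carbonic anhydrase abundant in both fat and muscle, was the lowest member at a log2 fold change of −1.11, and −0.77 without the 2 libraries. Lipe, the hormone-sensitive lipase that breaks down stored fat, measured 433.7, 262.9 and 508 in CTX and 566.6, 468.6 and 820.2 in CTX-HC, a log2 fold change of 0.64 (SE 0.29, unadjusted p = 0.0475 by limma), and 0.49 without the 2 libraries. Cell cycle genes (30 tested) had medians of 0.235 and 0.0419, and 25 of them were highest in CTX-HC replicate 3. Growth factor signalling (34 tested) had medians of −0.0499 and 0.258.

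Whether the HC effect at 30 DPI differed from that at 2 DPI was tested in the same fit as an interaction. No gene passed correction (0 of 14033 genes, 0%, smallest adjusted p 0.999 by limma), and 355 had an unadjusted p under 0.05 (2.53%), of which 227 had a positive difference and the rest a negative one. Without the 2 libraries that stood apart the count past correction was also 0. At 2 DPI itself HC changed no gene after correction either (0%, smallest adjusted p 0.105), with 1005 genes at an unadjusted p under 0.05 (7.16%). The 10 named genes, chosen for the smallest interaction p, all had a negative HC value at 2 DPI and a more positive one at 30 DPI. H19, an imprinted noncoding RNA of growing and regenerating muscle (chr7:142575529-142578143, minus strand), had the smallest. It measured 12770, 14873 and 9730 in CTX and 20895, 10857 and 24055 in CTX-HC at 30 DPI, a log2 fold change of 0.52, and 0.32 without the 2 libraries. At 2 DPI it measured 18363 to 22349 in CTX and 5561 to 6632 in CTX-HC, a log2 fold change of −1.70. The difference between the 2 effects was 2.22 (SE 0.41, unadjusted p = 0.00011 by limma). Pnpla3 had 1.65 at 30 DPI and −1.74 at 2 DPI, and Socs2 had 1.08 and −0.26. Calcoco1, an autophagy receptor, and Atp1b2, a subunit of the sodium pump, stood at 0.02 and −0.06 at 30 DPI, so their differences of 0.89 and 1.53 came from day 2.

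**Figure D5:**
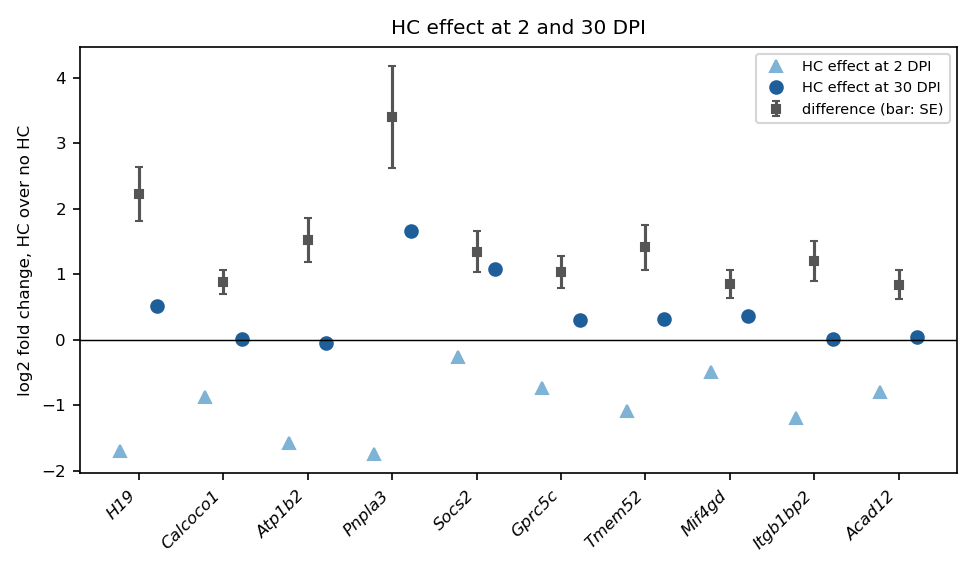
For the 10 genes named by the smallest interaction p (x axis), the log2 fold change of HC over no HC (y axis) is drawn at 2 DPI (triangles), at 30 DPI (circles) and as the difference of the 2 with its SE (squares with bars). All 10 triangles lie below 0, with H19 at −1.70, and all 10 differences lie above 0.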

How the data were processed

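RNA-seq was made from 15 mouse gastrocnemius libraries in 5 groups of 3, with stranded mRNA libraries sequenced on an Illumina NovaSeq. The authors aligned reads to mm10 with STAR, counted them per gene and deposited counts divided by DESeq2 size factors, a normalised signal and not raw counts. Whole reads could not be recovered from them (1.53% to 4.43% of values came out whole per library, tolerance 0.001), so no count test was run and limma 3.58.1 (R 4.3.3) was used.

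Values were taken as log2(value + 1), which understates changes of low genes. Genes at 10 or more in at least 3 libraries were kept (14033 of 24972). All 15 libraries shared 1 trended estimate of the spread, with no covariate, and p-values were adjusted by Benjamini-Hochberg. The procedure was tested on simulated data with independent noise and the same spread in every library. Those data held no library that stands apart, so they do not test the fit under that condition. Alternatives were the pseudocount, the filter, the scaling, the variance model, the library number as a covariate, only the groups compared, and leaving out each library. Named genes were the largest changes past correction, filled to 10 a direction with genes at the study's threshold whose groups did not overlap and whose mean was at least 20, the genes of smallest interaction p, and per list the members at an unadjusted p under 0.05, or else the 2 most abundant. Other list members named, such as Ndufs8, Ppara and Tnmd, were chosen after their values were seen. Values of some named genes are not reported here. Members and lists were chosen with earlier results of these data known. Positions came from GENCODE and promoters from RefSeq.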

Additional observations from a re-analysis of the deposited data

How the results depend on the processing

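The count of genes past correction at 30 DPI was 0 in every alternative but 2, both given here, with a range of 0 to 1 when single libraries were left out. Without CTX replicate 2 the 1 gene was Ccl21b (adjusted p = 0.0055 by limma), listed at 0 in the other 2 CTX libraries, at 70.9 in the one left out and at 60.89 to 106.4 in CTX-HC, with near-identical copies that could share reads. For the interaction with 2 DPI the range was 0 to 1, the 1 gene being Gm20716 (adjusted p = 0.0409) without CTX 2 DPI replicate 1. Genes at the study's threshold numbered 60, but 208 with no filter (more genes tested), 21 with a stricter filter (fewer tested), 34 with only the groups compared, and 73 to 218 when single libraries were left out (136 without CTX replicate 1, 121 without CTX replicate 2, 218 without CTX-HC replicate 1, 154 without CTX-HC replicate 2 and 96 without CTX-HC replicate 3). Without both libraries that stood apart there were 100. Alternatives added after seeing the data weighted each library by its spread. Weights by REML, which did not converge and ran from 0.106 to 20.3, gave 868 genes past correction, 666 at the study's threshold and 692 for the interaction, and turned Lck to -2.58. Weights estimated gene by gene gave 0, 207 and 0. The cause of these shifts was not tested. Of 87 named genes 31, and of 37 lists 4, kept their direction in all 19 settings run. For named genes whose groups did not overlap, among them the 14 chosen by that rule, leaving out libraries could not turn the sign. The count of 31 is therefore in part fixed by how genes were named. A count test was not run, since the values are not counts. No paired analysis was possible because the replicate numbers follow accession order and pair no samples.

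With 3 libraries a group the median standard error was 0.316 on the log2 scale, which limits what size of difference these libraries could show.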
